A study of Danio rerio with 6 samples.

Results

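The genes described here build and hold the shape of the photoreceptor outer segment, the stack of membrane discs in which light is detected. They are the peripherin genes prph2a, prph2b and prph2l, the rom1 genes rom1a and rom1b, the prominin genes prom1a and prom1b, and the retinal fascin genes fscn2a and fscn2b. They were chosen by name, as every row of the deposited adult table that carries one of these 9 symbols. All 9 were found among 14781 genes, and all 9 passed the filter on low values, which left 11335 genes. The table's prph2l is listed as prph2lb in the RefSeq table of assembly GRCz12tu. In that table no member has another member as its neighbouring protein-coding gene.

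Peripherin and ROM1 are related tetraspanins that assemble at the disc rim, where the membrane bends sharply. Prominin-1, a protein with several membrane spans, sits at the edges of forming discs near the base of the outer segment. Retinal fascin bundles actin filaments. In fish photoreceptors it is found in the inner segment and in the calycal processes, the thin protrusions that surround the base of the outer segment. In humans, PRPH2 and PROM1 are mutated in inherited degenerations of rods and cones.

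Retinal RNA was sequenced from 3 samd7-/- zebrafish and 3 WT zebrafish. All 6 fish were males 3 months old, born to parents heterozygous for the stl888 allele of samd7, and the samd7-/- fish carried this allele on both copies. The gene encodes a photoreceptor protein with a SAM domain that acts with Polycomb repressors. Both retinas of 1 fish made 1 library, so that replicates were separate animals, and the allele was present in every cell of the mutant fish. Between 20186266 and 29117026 reads fell in genes per library. The unit throughout is the normalised read count, a read count per gene divided by a size factor of its library. Means are given ± SD with n = 3 fish per genotype. A log2 change is samd7-/- minus WT on the log2(value + 1) scale, and adjusted p is that of limma with Benjamini-Hochberg adjustment over 11335 genes, with 0.05 as the threshold.

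In samd7-/- retinas 4 of the 9 genes fell, namely prph2a, prph2l, fscn2a and fscn2b, and none rose. Over all genes tested, 1.78% were called lower and 0.829% higher. The fitted change was negative for all 9 genes, except that of prom1b when library totals were used for scaling (log2 change 0.090). Of all 11335 genes tested, 5482 had a negative change. The median log2 change of the 9 genes was -0.73, against 0.01 over all genes tested. In 6 of the 9 genes every samd7-/- fish lay below every WT fish, which was so for 14.8% of all genes tested. The other 3, rom1a, rom1b and prom1b, overlapped between genotypes. Fewer cells of a type and less RNA per cell cannot be told apart in RNA of whole retinas. Levels of different genes are not compared, because transcript lengths were not used here.

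**Figure D1:**
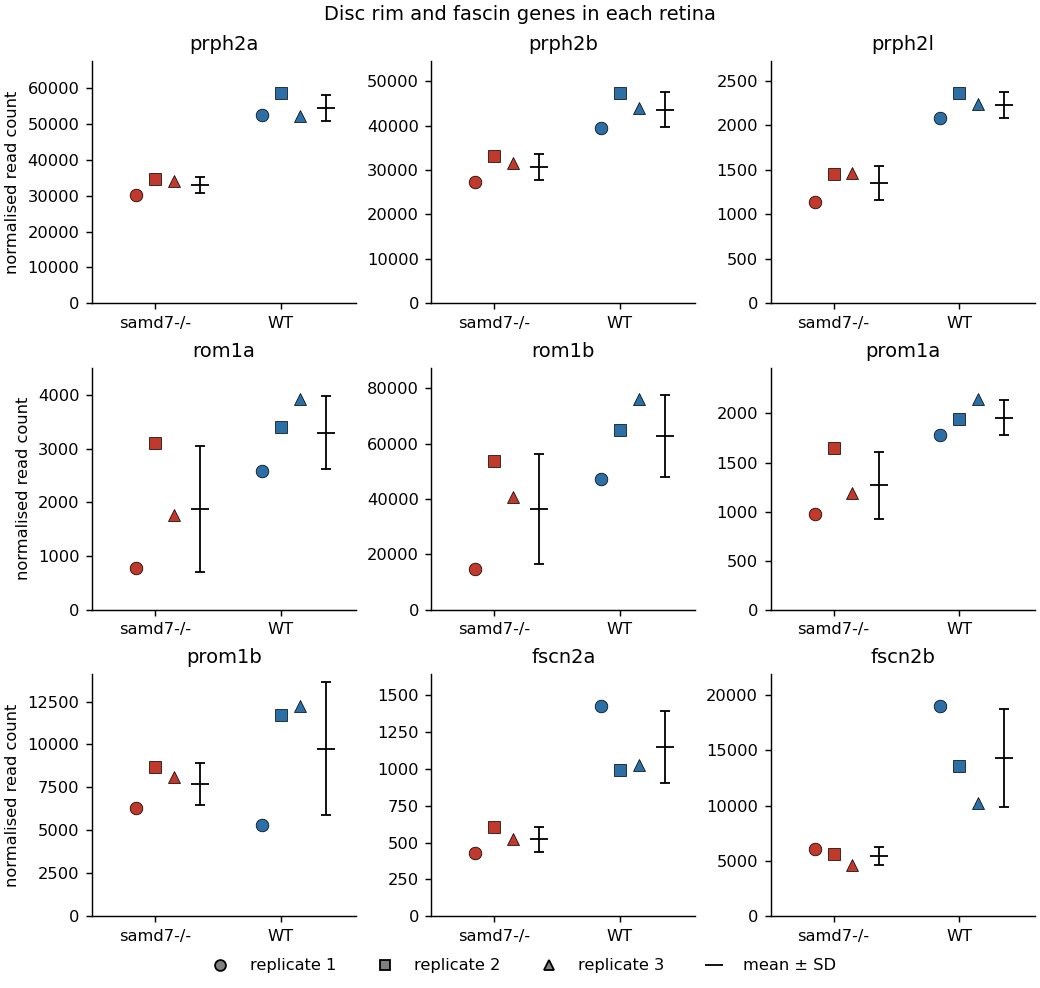
Normalised read count of each gene (vertical axis, starting at 0, own scale per panel) in samd7-/- retinas (red, left) and WT retinas (blue, right). Each symbol is 1 fish and black bars are mean ± SD with n = 3. The peripherin and fascin genes separate by genotype, rom1a and rom1b are far lower in samd7-/- replicate 1 than in the other fish, and prom1b is lowest in WT replicate 1.

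Of the 3 peripherin genes, prph2a and prph2l fell and prph2b did not pass the test. Zebrafish prph2a had 30355, 34615 and 34171 normalised reads in samd7-/- replicates 1, 2 and 3, against 52618, 58810 and 52420 in WT replicates 1, 2 and 3. All samd7-/- fish were thus below all WT fish. The means were 33047 ± 2342 in samd7-/- and 54616 ± 3634 in WT, a level 1.65-fold lower in the mutants (log2 change -0.73, SE 0.12, 95% interval -1.01 to -0.44, adjusted p = 0.0388). The coefficient of variation was 7.09% in samd7-/- and 6.65% in WT.

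The second peripherin, prph2b, had 27384, 33182 and 31492 normalised reads in samd7-/- retinas and 39401, 47399 and 43942 in WT retinas. The genotypes did not overlap. The means of 30686 ± 2982 in samd7-/- and 43581 ± 4011 in WT gave a change that missed the threshold (log2 change -0.51, SE 0.13, 95% interval -0.82 to -0.20, adjusted p = 0.0938). It was past the threshold with DESeq2 (adjusted p = 0.00598), by which 5 of the 9 genes were lower and none higher, against 6.63% and 4.14% of all genes. With edgeR 4 of the 9 genes were lower and none higher, against 1.44% and 0.812% of all genes, and prph2b was not among them (adjusted p = 0.102). In the authors' deposited table its adjusted p was 0.00748.

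The third, prph2l, had 1133, 1456 and 1468 normalised reads in samd7-/- retinas and 2077, 2366 and 2242 in WT retinas. It too separated the genotypes, at 1353 ± 190 in samd7-/- and 2228 ± 145 in WT. It was 1.65-fold lower in the mutants (log2 change -0.73, SE 0.13, 95% interval -1.03 to -0.43, adjusted p = 0.0420). The calls of prph2a and prph2l rested on all but 1 of the libraries. They held without WT replicate 1 (adjusted p = 0.0366 and 0.0413) and were lost without samd7-/- replicate 1 (0.158 and 0.149), replicate 2 (0.0568 and 0.0645) or replicate 3 (0.178 and 0.165). They were also lost without WT replicate 2 (0.134 and 0.140) or replicate 3 (0.0892 and 0.0942). Over these omissions the log2 change stayed between -0.76 and -0.67 for prph2a and between -0.79 and -0.61 for prph2l.

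The rom1 genes, whose products pair with peripherin, had lower means in the mutants but did not pass the test. The gene rom1a had 768, 3114 and 1763 normalised reads in samd7-/- retinas and 2580, 3400 and 3928 in WT retinas. Replicate 1 of the mutants was the lowest of all fish, whereas replicate 2 lay above WT replicate 1. Its means were 1882 ± 1177 in samd7-/- and 3303 ± 679 in WT (log2 change -1.01, SE 0.49, 95% interval -2.20 to 0.18, adjusted p = 0.306). The paralog rom1b had 14601, 53771 and 40634 normalised reads in samd7-/- retinas and 47063, 65090 and 76080 in WT retinas. The same mutant fish was lowest and the same one overlapped WT. Its means were 36335 ± 19936 in samd7-/- and 62744 ± 14650 in WT (log2 change -0.96, SE 0.49, 95% interval -2.14 to 0.23, adjusted p = 0.330).

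Fitted changes of the rom1 genes were larger than those of prph2a, but so was the spread. The highest mutant was 4.05 times the lowest for rom1a and 3.68 times for rom1b, against 1.52 times and 1.62 times within WT. For prph2a this factor was 1.14 in samd7-/- and 1.12 in WT. Without samd7-/- replicate 1 the log2 change was -0.47 for rom1a (adjusted p = 0.524) and -0.40 for rom1b (adjusted p = 0.531). Without samd7-/- replicate 2 it was -1.48 and -1.34 (adjusted p = 0.129 and 0.213).

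The prominin genes did not pass the test either. Expression of prom1a stood at 974, 1645 and 1187 normalised reads in samd7-/- retinas and at 1785, 1940 and 2147 in WT retinas. All mutants lay below all WT fish, with replicate 2 close to the WT range. The means were 1269 ± 343 in samd7-/- and 1957 ± 181 in WT (log2 change -0.66, SE 0.19, 95% interval -1.12 to -0.20, adjusted p = 0.123). Leaving out samd7-/- replicate 2 brought it past the threshold (log2 change -0.86, adjusted p = 0.0490). In the authors' deposited table its adjusted p was 0.0584.

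Its paralog prom1b had 6299, 8691 and 8091 normalised reads in samd7-/- retinas and 5315, 11690 and 12264 in WT retinas. WT replicate 1 was the lowest of all 6 fish, and the other WT fish were the highest. The means of 7694 ± 1244 in samd7-/- and 9757 ± 3857 in WT did not differ beyond this spread (log2 change -0.26, SE 0.34, 95% interval -1.07 to 0.55, adjusted p = 0.708). Without WT replicate 1 the log2 change was -0.65 (adjusted p = 0.0766), and without WT replicate 3 it was -0.05 (adjusted p = 0.954).

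The fascin genes fell most in fold among the genes called. The gene fscn2b had 6099, 5652 and 4584 normalised reads in samd7-/- retinas and 19050, 13582 and 10220 in WT retinas. The mutants were close together and all below the lowest WT fish. Its means were 5445 ± 779 in samd7-/- and 14284 ± 4457 in WT, 2.62-fold lower in the mutants (log2 change -1.35, SE 0.24, 95% interval -1.92 to -0.79, adjusted p = 0.0423). In zebrafish its product is also a component of the actin bundles of hair cells in the ear.

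The other fascin, fscn2a, had 431, 606 and 526 normalised reads in samd7-/- retinas and 1431, 995 and 1026 in WT retinas. Again no mutant reached the WT range. Its means were 521 ± 87.4 in samd7-/- and 1151 ± 243 in WT, 2.21-fold lower in the mutants (log2 change -1.13, SE 0.19, 95% interval -1.58 to -0.69, adjusted p = 0.0389). Of all genes tested, 2.34% had a change as low as that of fscn2a or lower and 1.37% one as low as that of fscn2b, against 5.81% for prph2a. For both fascins WT replicate 1 was the highest fish, and without it both calls held (adjusted p = 0.0354 for fscn2a and 0.0347 for fscn2b). Both were lost without samd7-/- replicate 1 (0.155 and 0.158), samd7-/- replicate 3 (0.178 and 0.184) or WT replicate 2 (0.112 and 0.139). That of fscn2a was also lost without WT replicate 3 (0.0848) and that of fscn2b without samd7-/- replicate 2 (0.0821).

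**Figure D2:**
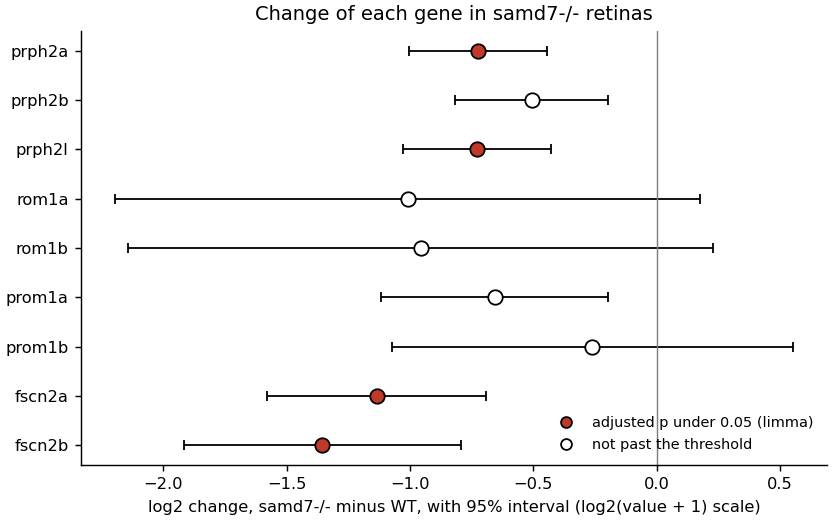
Log2 change of each gene, samd7-/- minus WT, on the log2(value + 1) scale (horizontal axis), with its 95% interval from limma. Filled points are past an adjusted p of 0.05. The intervals of rom1a, rom1b and prom1b reach past 0, while those of prph2b and prom1a lie below 0 although the adjusted p missed the threshold.

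Ratios between paralogs within a library do not depend on how the library was scaled. The log2 ratio of prph2b to prph2a was -0.15, -0.06 and -0.12 in samd7-/- retinas and -0.42, -0.31 and -0.25 in WT retinas. Every mutant was higher, by 0.22 on average. In a two-sided exact permutation test p was 0.1, the smallest possible with 3 against 3, and 0.254 after adjustment over 33 ratios. No ratio could therefore pass the threshold. The log2 ratio of prph2l to prph2a was -4.62 ± 0.11 in samd7-/- and -4.61 ± 0.06 in WT, with no difference detected (exact permutation test, p = 1). That of rom1b to rom1a was 4.29 ± 0.21 in samd7-/- and 4.24 ± 0.05 in WT (exact permutation test, p = 0.9).

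For the prominins and fascins the ratios overlapped. The log2 ratio of prom1b to prom1a was 2.62 ± 0.19 in samd7-/- and 2.23 ± 0.57 in WT, where replicate 1 stood apart at 1.57 (exact permutation test, p = 0.4). Without that fish the difference was 0.07 in place of 0.39. That of fscn2b to fscn2a was 3.39 ± 0.38 in samd7-/- and 3.61 ± 0.25 in WT (exact permutation test, p = 0.4). The summed peripherin reads over the summed rom1 reads had a log2 ratio of 1.94, 0.28 and 0.66 in samd7-/- retinas and 0.92, 0.66 and 0.30 in WT retinas (exact permutation test, p = 0.9). The peripherin to rom1 ratio was highest in samd7-/- replicate 1, and the other mutants lay within or just below the WT range.

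**Figure D3:**
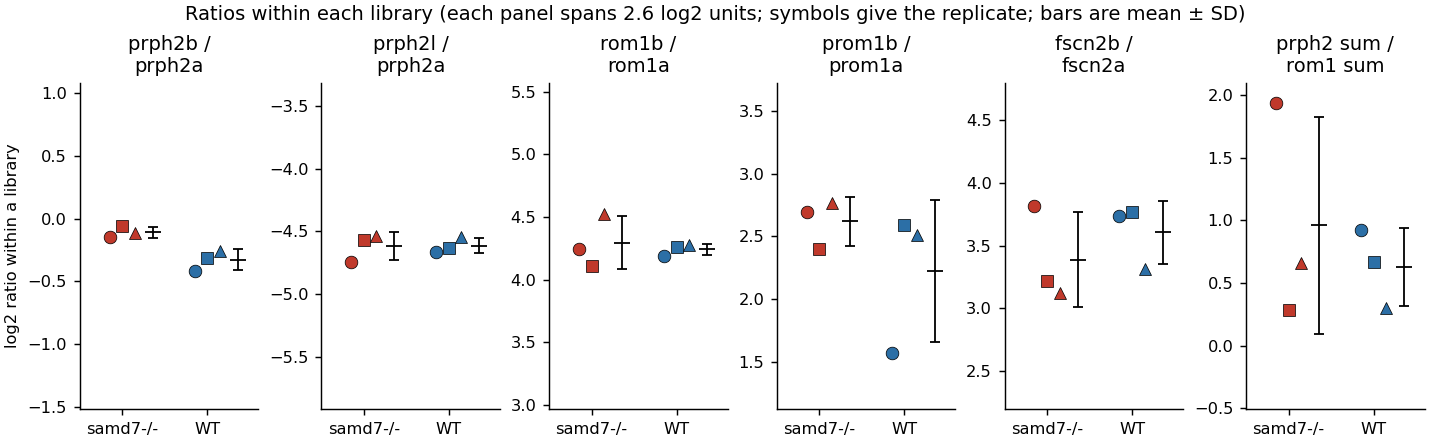
Log2 ratio of normalised reads within a library (vertical axis) for 5 pairs of paralogs and for the summed peripherin over the summed rom1 genes, in samd7-/- retinas (red, left) and WT retinas (blue, right). Each symbol is 1 fish and bars are mean ± SD with n = 3. Only the ratio of prph2b to prph2a separates the genotypes, with mutants between -0.15 and -0.06 and WT between -0.42 and -0.25.

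Photoreceptor marker lists gave the following values in the same libraries. The rod list, of which 16 of 19 entries were in the table, summed to between 626027 and 2279677 normalised reads in samd7-/- retinas and between 2122104 and 3336095 in WT retinas. Of the 16 rod genes tested 1 fell and none rose, against 1.78% and 0.829% of all genes, and 1 call says little about the list. This was the rod transcription factor nrl, with 157 ± 32.7 normalised reads in samd7-/- and 408 ± 88.1 in WT (log2 change -1.36, adjusted p = 0.0408). Its call was lost without samd7-/- replicate 1 (adjusted p = 0.158) or replicate 3 (0.178) and without WT replicate 2 (0.134) or replicate 3 (0.0936). The median log2 change of the rod list was -1.01, with 15 changes negative and 1 positive. The lowest rod sum was that of samd7-/- replicate 1, and the genotypes overlapped. The rod opsin gene rho made up most of this sum. It had between 410623 and 1490410 normalised reads in samd7-/- retinas and between 1420939 and 2349076 in WT retinas. The cone list, with 23 of 27 entries in the table, summed to between 1779167 and 2023762 in samd7-/- retinas and between 2466234 and 3309645 in WT retinas. Of its 22 tested genes 10 fell and 1 rose, against 1.78% and 0.829% of all genes. The green cone opsin opn1mw1 was at 0 in every mutant library, and opn1mw3 was at 0, 2.09 and 0. These opsins passed the filter only through the WT libraries, so that a fall was the only change they could show. Between 4 and 9 cone genes were called lower when 1 library was left out. Without a WT library opn1mw1 and opn1mw3 no longer passed the filter and were not tested, so those counts came from fewer genes. A list of pan-photoreceptor markers, called the shared photoreceptor list below, had 13 of 21 entries in the table. Whether each of its genes is expressed in both rods and cones was not tested. The list summed to between 223751 and 299368 in samd7-/- retinas and between 420915 and 484709 in WT retinas. Its median log2 change was -0.65, with 12 changes negative and 1 positive. Of its 13 tested genes 1 fell and none rose, and 1 call again says little about the list. This was the phosducin gene pdcb, which had 26041 ± 1003 normalised reads in samd7-/- and 59073 ± 2845 in WT (log2 change -1.18, adjusted p = 0.00707). Its call was lost without samd7-/- replicate 1 (adjusted p = 0.0506), samd7-/- replicate 3 (0.0645) or WT replicate 2 (0.0651). With DESeq2 7 genes of the shared list were called lower, against 6.63% of all genes. The part of photoreceptor content in the changes of the 9 genes was not tested.

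The members differed in which marker list they were nearer to over the 6 libraries. Each profile was centred on its own mean of log2 values, and likeness was the root mean square difference between profiles, given as a description. For rom1a this difference was 0.12 from the rod list and 0.49 from the shared photoreceptor list, and for rom1b it was 0.17 and 0.49. Both were thus nearer to the rod genes. For prph2a it was 0.47 from the rod list and 0.09 from the shared list, for prph2b 0.48 and 0.16, and for prph2l 0.42 and 0.07. The peripherin genes were thus nearer to the shared list. The same held for prom1a, at 0.33 and 0.14. For prom1b the differences were 0.58 and 0.44, so that it followed neither list closely. In WT replicate 1 it stood at -0.65 relative to its mean, against 0.31 for the shared list. For fscn2a the differences were 0.46 and 0.27. For fscn2b they were 0.70 and 0.45, so that fscn2b also followed neither list closely. The cone list was farther from each member than either of these lists. This measure includes the size of a change, and the cone list, with genes at or near 0 in mutants, ran from -1.80 to 1.85. Its distance therefore cannot show whether a member followed cone genes with smaller changes.

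Within samd7-/- retinas the rod list stood at -1.39, 0.34 and -0.37 relative to its mean over all libraries, on the log2 scale. The rom1b gene stood at -1.60, 0.28 and -0.12 in the same fish, and prph2a at -0.48, -0.29 and -0.31. The low rod level of samd7-/- replicate 1 was therefore seen in rom1b and far less in prph2a. When each rom1 gene was divided by the geometric mean of the rod list, its log2 ratio was -3.17 ± 0.15 in samd7-/- and -3.10 ± 0.13 in WT for rom1a (exact permutation test, p = 0.6). For rom1b this ratio was 1.13 ± 0.24 in samd7-/- and 1.14 ± 0.18 in WT (exact permutation test, p = 1). Relative to the shared photoreceptor list, prph2b was higher in every mutant, by 0.31 on the log2 scale, and fscn2a lower in every mutant, by 0.32 (exact permutation test, p = 0.1 for each and 0.254 adjusted over 33 ratios). Without WT replicate 1 the difference for fscn2a was -0.11. The other gene that separated the genotypes against this list was prom1b, higher in every mutant by 0.55, and by 0.21 without WT replicate 1. The other 6 members overlapped against it, with differences between -0.54 for fscn2b and 0.16 for prom1a. Against the rod list all 9 members overlapped, with differences between -0.41 for fscn2b and 0.68 for prom1b. Relative to the cone list, in which 10 genes fell, all 9 genes were higher in every mutant, by 2.09 to 3.18. Those values depend on the pseudocount, since cone genes at or near 0 enter the list, and were 1.66 to 2.75 with a pseudocount of 10. Very large falls, such as that of opn1mw3 (log2 change -15.8), weigh on this geometric mean. The median log2 change of the cone list was -1.38, against -1.35 for fscn2b and -1.13 for fscn2a. The ratios therefore do not show that the fascins fell less than a typical cone gene. In all, 13 of the 33 ratios separated the genotypes, among them the 9 to the cone list. Those 9 share 1 denominator and are not separate results. A separation of 3 fish from 3 in either direction has p = 0.1 in the exact permutation test.

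**Figure D4:**
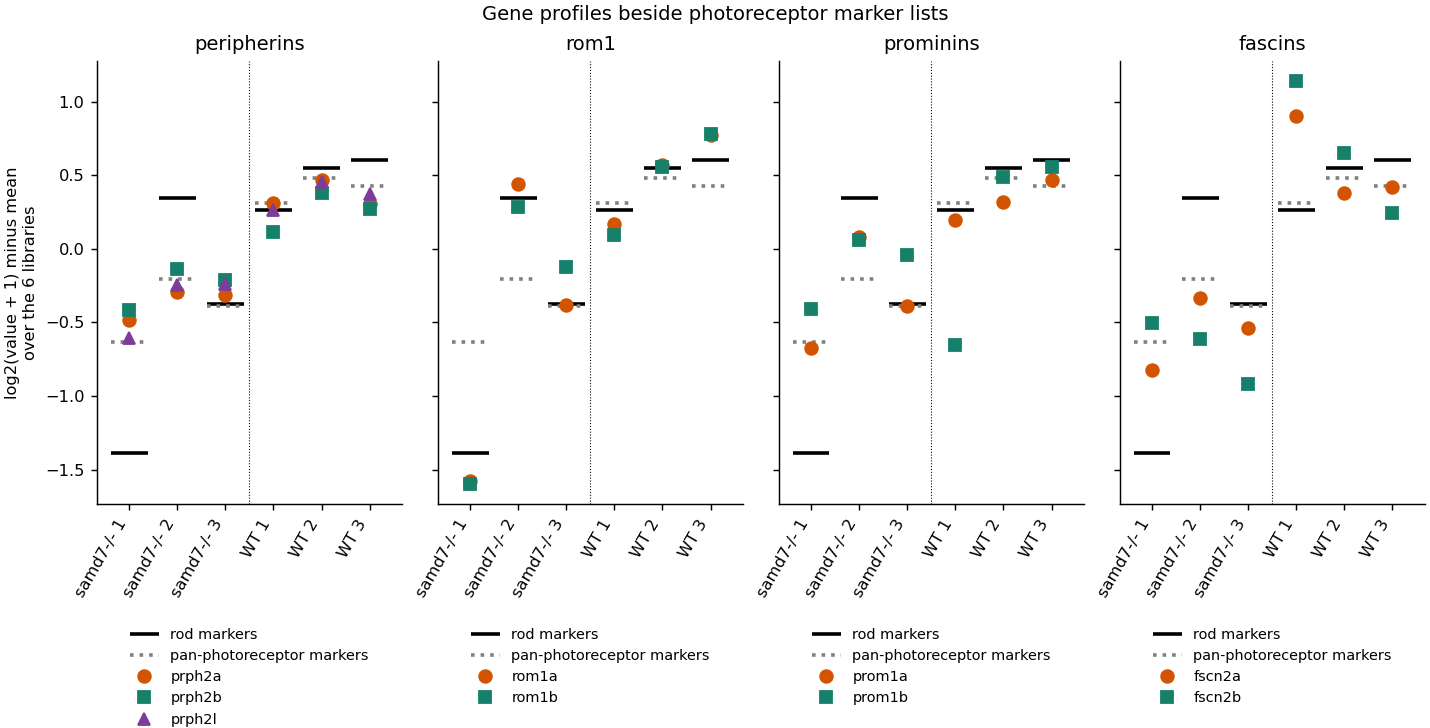
Log2(value + 1) of each gene minus its mean over the 6 libraries (vertical axis), for 3 samd7-/- libraries (left of the dotted line) and 3 WT libraries. Black bars are the mean of the rod list and grey dotted bars that of the shared photoreceptor list. In samd7-/- replicate 1 rom1a and rom1b lie at -1.58 and -1.60, beside the rod list at -1.39, and the peripherins lie beside the shared list.

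The genes most like each member were sought among 8792 tested genes with a mean of at least 100 normalised reads. For rom1b the nearest were the rod transducin gnat1 (root mean square difference 0.06), the rod opsin rho (0.06) and si:dkey-22i16.2, which RefSeq lists as the cyclic nucleotide channel gene cnga1a (0.07). For rom1a they were the rod phosphodiesterase pde6a (0.09), si:dkey-22i16.2 (0.11) and the complexin cplx4c (0.13). All of these genes except cplx4c are entries of the rod list. For the rom1 genes the search was therefore not separate from the comparison with that list. For prph2a the nearest were gcdhb (0.05), hif1ab (0.05) and tpd52l2a (0.06), for prph2b ptcd2 (0.03), kctd9a (0.05) and the tetraspanin tspan5a (0.05), and for prph2l ccnyl1 (0.05), pitpnb (0.06) and uap1 (0.06). The nearest genes to prom1a were cyb5r4, mid1ip1b and cobl (0.08 to 0.09), and those to prom1b were pcm1, idh3g and med17 (0.06 to 0.10). Nearest to fscn2b were unc119b (0.09), which is an entry of the shared photoreceptor list, bokb (0.11) and prlra (0.11). Nearest to fscn2a were cox6b1 (0.09), uckl1a (0.11) and ppp1r13ba (0.11). Among members, prph2a and prph2l were the closest pair (0.07) and prom1b and fscn2b the most distant (0.87).

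A list of other outer segment genes, called the disc structure list, had 19 of its 40 entries in the table. It also holds cyclase, channel, traffic and apical polarity genes, so its counts do not describe disc proteins alone. Of the 17 tested, 4 fell and none rose, against 1.78% of all genes called lower. Their median log2 change was -0.74, against 0.01 over all genes, and all 17 changes were negative. Of all 11335 genes tested, 5482 had a negative change. The photoreceptor marker lists also shifted down. Their medians were -0.65 for the shared list, with 12 of 13 changes negative, and -1.01 for the rod list, with 15 of 16 negative. The retinal guanylate cyclase gc3 had 4061, 3808 and 2844 normalised reads in samd7-/- retinas and 10931, 11918 and 7907 in WT retinas (log2 change -1.52, SE 0.20, adjusted p = 0.0239). The photoreceptor cadherin cdhr1a, a protein of forming discs, had 2125, 3015 and 2682 in samd7-/- retinas and 4267, 4506 and 4167 in WT retinas (log2 change -0.74, SE 0.14, adjusted p = 0.0478). In both genes all mutants were below all WT fish.

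The GTPase activator rp2, which takes part in the traffic of lipid-modified proteins to the outer segment, was at 2766 ± 70.6 in samd7-/- and 4766 ± 702 in WT (log2 change -0.77, adjusted p = 0.0388). The apical polarity gene crb2a was at 733 ± 144 in samd7-/- and 1336 ± 87.4 in WT (log2 change -0.88, adjusted p = 0.0442). Its relative crb1 was at 2040 ± 173 in samd7-/- and 4628 ± 1728 in WT, and did not pass (log2 change -1.12, adjusted p = 0.0729). The small GTPase arl3 was at 2876 ± 172 in samd7-/- and 3909 ± 429 in WT (log2 change -0.44, adjusted p = 0.0905). The calls of gc3, cdhr1a, rp2 and crb2a were lost without samd7-/- replicate 1 (adjusted p = 0.0900 for gc3 and up to 0.155). They were also lost without samd7-/- replicate 3 (0.111 for gc3 and up to 0.184) or WT replicate 2 (0.0983 for gc3 and up to 0.148). That of rp2 was also lost without samd7-/- replicate 2 (0.0732), and that of cdhr1a without WT replicate 1 (0.0584) or replicate 3 (0.0978). That of crb2a was lost without samd7-/- replicate 2 (0.0651), WT replicate 1 (0.0616) or WT replicate 3 (0.102).

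Beside the fascins, 1 of 10 tested genes of calycal processes and related actin protrusions fell and none rose, against 1.78% and 0.829% of all genes, and 1 call says little about the list. This was espn, for the actin-bundling protein espin, with 1457, 1705 and 1459 normalised reads in samd7-/- retinas and 3040, 2937 and 2762 in WT retinas (log2 change -0.92, SE 0.10, adjusted p = 0.0133). The genotypes were far apart relative to the spread within each. The call was lost without samd7-/- replicate 1 (adjusted p = 0.0838), samd7-/- replicate 3 (0.105) or WT replicate 2 (0.0778). The class III myosin gene myo3a was at 832 ± 159 in samd7-/- and 2016 ± 900 in WT (log2 change -1.20, adjusted p = 0.106). The actin regulator eps8 was at 3721 ± 634 in samd7-/- and 5620 ± 587 in WT (log2 change -0.60, adjusted p = 0.0866). The median log2 change of these 10 genes was -0.65, with 9 negative. For ush1c, which encodes the scaffold harmonin, all mutants lay above all WT fish, at 911 ± 109 in samd7-/- and 732 ± 66.0 in WT (log2 change 0.31, adjusted p = 0.224). The same was so for 13.3% of all genes tested.

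**Figure D5:**
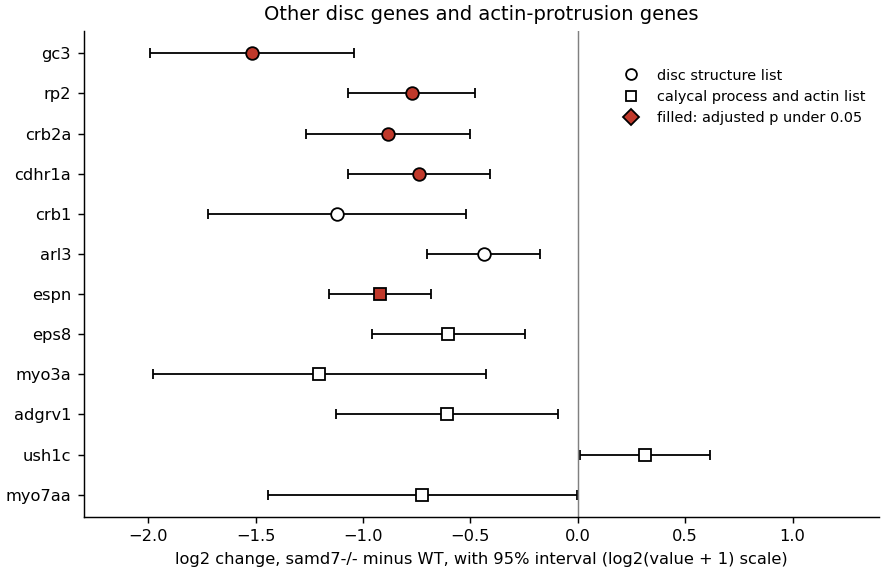
Log2 change, samd7-/- minus WT, on the log2(value + 1) scale (horizontal axis) with its 95% interval from limma, for the 6 genes with the smallest p of the disc structure list (circles) and of the calycal process and actin list (squares). Filled symbols are past an adjusted p of 0.05. The 5 filled genes lie between -1.52 and -0.74, and ush1c is the one gene above 0.

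None of the 12 tested relatives of these genes, other fascins, prominins and tetraspanins, passed the test, and their median log2 change was 0.09. DESeq2 called 1 of them lower and 2 higher, against 6.63% and 4.14% of all genes. With library totals 4 were called higher, as were 1987 of 11367 genes. The fascin fscn1a, which many cell types express, had 8324, 8421 and 11122 normalised reads in samd7-/- retinas and 3646, 5856 and 7929 in WT retinas. Its mutants lay above all WT fish, a direction opposite to that of fscn2a and fscn2b (log2 change 0.73, SE 0.29, 95% interval 0.04 to 1.42, adjusted p = 0.216). Such a separation upward was seen in 13.3% of all genes tested. The tetraspanin tspan3a was at 9225 ± 362 in samd7-/- and 12485 ± 516 in WT (log2 change -0.44, adjusted p = 0.0636). It was the relative that DESeq2 called lower (adjusted p = 0.000192). The prominin prom2 was scarce in both genotypes, at 20.0 ± 9.29 in samd7-/- and 34.4 ± 24.6 in WT.

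Markers of other cells in the retinal sample were called in 1 list. Of 7 proliferation genes 4 rose, against 0.829% of all genes tested. The number was 0 without samd7-/- replicate 1 or 3 or WT replicate 2 or 3, and 0 with limma without trend. It was 5 without samd7-/- replicate 2 and 3 without WT replicate 1. The list summed to between 3651 and 6874 normalised reads in samd7-/- retinas and between 2638 and 3692 in WT retinas. None passed among 9 pigment epithelium, 10 Müller glia, 10 bipolar, 11 amacrine and ganglion cell, and 5 microglia genes. Changes were positive in 9 Müller glia, 7 bipolar, and 9 amacrine and ganglion cell genes (median log2 change 0.11, 0.22 and 0.40). With library totals 4, 2 and 5 of these lists' genes were called higher, as were 1987 of the 11367 genes tested with that scaling. Changes were negative in 5 pigment epithelium and 5 microglia genes (median -0.19 and -0.01). The pigment epithelium sum was between 10466 and 51657 in samd7-/- retinas and between 13992 and 39327 in WT retinas, with samd7-/- replicate 2 and WT replicate 1 lowest. Of 6 lens genes 1 passed the filter and was not called. The samd7 transcript was at 3745 ± 1328 in samd7-/- and 4646 ± 501 in WT (log2 change -0.37, adjusted p = 0.466), so its level did not check the genotype labels.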

How the data were processed

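The authors deposited 1 table with a signal value per gene and library, each a read count divided by a size factor, from which whole reads could be recovered (100% of values in every library, tolerance 0.01 reads). The log2 fold changes and adjusted p-values beside them are the authors' own, per the file headers, and are named where printed. Upstream the submitters' processing notes name R 4.1.3, DESeq2 1.34.0, HTSeq 0.9.1, STAR 2.7.2b and Trim Galore 0.6.1 with danRer10. Their settings, the strand rule and the annotation were not stated there. Reads were 150 bp pairs from 10 ng of RNA amplified for 12 and then 15 cycles, per the labels' protocols, so that reads are not independent molecules.

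The main test was limma 3.58.1 (R 4.3.3), trended and robust, on log2(value + 1). Genes needed 10 normalised reads or more in 3 libraries. Of 33 ratios compared by exact permutation over samples, those to marker lists that are discussed singly were chosen after their values were seen. The fits were tested on simulated data in which genes varied independently. Spread shared by many genes of a library, as in the rod list, was not simulated. Members, lists, tests and named genes were chosen with earlier results of these data known. Named were all members, from each list discussed up to 6 genes by smallest p, and the 3 genes most like each member, with fewer printed where a list was summarised. Of 206 list entries, 153 were in the table under a current or older name. Alternatives were TMM and library-total scaling, other filters and pseudocounts, limma without trend, edgeR 4.0.16, DESeq2 1.42.0, a replicate block and each library left out. Read counts of any 2 libraries of a genotype differed beyond sampling noise (chi-square over degrees of freedom at least 58.7).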

Additional observations from a re-analysis of the deposited data

How the results depend on the processing

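The direction of the 9 member changes held in 16 alternatives, except that of prom1b with library totals (0.090). Library totals shifted the median log2 change of all genes to 0.36, with 141 genes lower and 1987 higher in place of 202 and 94. Relative to that shift prph2a stood at -0.74 and prom1b at -0.27. With them 2 members and 1 gene of the disc structure list were called lower. The calls of prph2a (-0.37, adjusted p = 0.0599) and prph2l (-0.38, 0.0507) were lost. Limma without trend called 22 genes lower and 8 higher, with 0 members and 0 genes of the disc structure list among them. The changes of prph2a (-0.73, adjusted p = 0.0700), prph2l (-0.73, 0.0936), fscn2a (-1.13, 0.0809) and fscn2b (-1.35, 0.0901) stayed the same in size. DESeq2 called 751 lower and 469 higher, with prph2b among them (-0.51), and 6 genes of the disc structure list in place of 4. It also called lower 7 genes of the shared photoreceptor list in place of 1 and 15 cone genes in place of 10. Of the calycal process and actin list it called 3 lower in place of 1, and of the rod list 2 in place of 1. It called 2 cone genes higher in place of 1. Why these settings differ was not tested.

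Without each library in turn, between 11 and 236 genes were called lower and between 4 and 130 higher. Between 0 and 4 members and between 0 and 5 genes of the disc structure list were called lower. The fewest genes came without WT replicate 2 and the most without WT replicate 1. The log2 change ranged from -0.76 to -0.67 for prph2a, from -0.79 to -0.61 for prph2l, from -0.86 to -0.48 for prom1a, from -1.25 to -0.97 for fscn2a and from -1.57 to -1.12 for fscn2b. Among differences of log2 ratios that changed sign, prph2l over prph2a ranged from -0.041 to 0.060 and was 0.0012 with a pseudocount of 10. That of rom1b over rom1a ranged from -0.063 to 0.15, summed peripherins over summed rom1 genes from -0.16 to 0.67, and against the rod list rom1a from -0.13 to 0.014, rom1b from -0.14 to 0.091, prph2a from -0.18 to 0.59, prph2l from -0.12 to 0.57 and fscn2a from -0.52 to 0.10. Against the shared photoreceptor list rom1a ranged from -0.57 to 0.23 and rom1b from -0.42 to 0.31. The call of cdhr1a was lost with TMM (adjusted p = 0.0504), library totals (0.0536) and edgeR (0.0536), that of rp2 with library totals (0.0751), and that of crb2a with library totals (0.0673) and with a replicate block (0.0513). Those of espn (0.0538) and nrl (0.0766) were lost with limma without trend.

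Whether replicate numbers pair the fish could not be decided from 3 pairs. Deviations of same-numbered libraries correlated at 0.19, -0.14 and 0.23. The values of replicates 1 and 3 were the highest of all pairings, while samd7-/- replicate 2 correlated better with WT replicate 1 (0.13). With a replicate block 208 genes were lower and 81 higher, with 3 members lower, and fscn2a was not called (-1.13, adjusted p = 0.0629). With 3 fish per genotype, the spread between libraries of a genotype limits these comparisons. Each member had 431 or more normalised reads in every library. The parts of fish and of amplification in this spread were not tested.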
